A study of Mus musculus with 9 samples.

Results

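Midbrain transcripts of 8 genes were examined: the calcium channel pore genes Cacna1c, Cacna1d, Cacna1g, Cacna1h and Cacna1i and the HCN channel genes Hcn2, Hcn3 and Hcn4. They were taken by symbol, whatever their level, and are 8 of the 26602 genes with a count. RNA came from tissue of the midbrain that holds the substantia nigra pars compacta, from 4 mice of the DJ-1+/+ genotype and 5 of the DJ-1-/- genotype, all 3 to 4 months old, with 1 library per mouse. DJ-1 is the protein of the Parkinson's disease gene Park7. DJ-1-/- mice were homozygous for a targeted DJ-1 allele backcrossed to C57BL/6 and bred from heterozygous animals, so every cell of the body carried the allele throughout life. DJ-1+/+ mice were the wild-type controls, no mouse was treated, and the labels do not give the sex of the mice. The tissue was not sorted, so fewer cells of a type and less RNA per cell cannot be told apart.

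These channels let neurons fire without input. L-type pores (Cacna1c encodes Cav1.2, Cacna1d encodes Cav1.3) admit calcium over long openings, and Cav1.3 opens at more negative voltages and contributes to the calcium oscillations of dopaminergic neurons in the substantia nigra. T-type pores (Cacna1g, Cacna1h and Cacna1i encode Cav3.1, Cav3.2 and Cav3.3) open transiently near rest and support burst firing, for which Cav3.1 in thalamic relay neurons is the classical case. HCN channels open on hyperpolarization, are modulated by cyclic AMP and pass the pacemaker current Ih; Hcn2 and Hcn4 respond strongly to cyclic AMP, while Hcn3 responds little.

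The promoter windows of 3 genes are shown because these genes differed in how they varied among the libraries. Hcn4 was highest where thalamic markers were highest, Cacna1i was low there, and Hcn2 varied least of the 8 among DJ-1-/- mice. RefSeq (GRCm38.p6) windows from 250 bases before to 50 bases after an annotated start were matched for 5 of the 8 genes, in 8 windows, while Cacna1g, Cacna1h and Hcn3 had no entry. The GC box (GGGCGG) and the TCF/LEF motif (CTTTGAA, the variant CTTTGAT, the variant CTTTGTA and the variant CTTTGTT) were searched on both strands, the latter because Tcf7l2 and Lef1 are among the thalamic markers. Capitals mark matches, which here all read on the minus strand, and no matches of the different motifs overlapped. Hcn4 lies at chr9:58822699-58822998 (plus strand), Hcn2 at chr10:79716384-79716683 (plus strand) and Cacna1i at chr15:80286988-80287287 (plus strand).
Hcn4: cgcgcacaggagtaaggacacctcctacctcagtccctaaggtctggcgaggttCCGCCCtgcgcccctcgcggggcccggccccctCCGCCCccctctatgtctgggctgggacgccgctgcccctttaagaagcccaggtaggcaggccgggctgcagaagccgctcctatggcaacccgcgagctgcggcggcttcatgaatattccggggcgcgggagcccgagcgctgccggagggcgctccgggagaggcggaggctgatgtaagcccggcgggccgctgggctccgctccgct
Hcn2: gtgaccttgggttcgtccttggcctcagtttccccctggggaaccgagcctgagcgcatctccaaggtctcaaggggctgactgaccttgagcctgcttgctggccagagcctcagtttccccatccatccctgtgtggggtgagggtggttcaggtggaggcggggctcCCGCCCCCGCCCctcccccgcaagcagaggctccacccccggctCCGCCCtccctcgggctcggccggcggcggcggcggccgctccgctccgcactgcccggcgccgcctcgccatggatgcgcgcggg
Cacna1i: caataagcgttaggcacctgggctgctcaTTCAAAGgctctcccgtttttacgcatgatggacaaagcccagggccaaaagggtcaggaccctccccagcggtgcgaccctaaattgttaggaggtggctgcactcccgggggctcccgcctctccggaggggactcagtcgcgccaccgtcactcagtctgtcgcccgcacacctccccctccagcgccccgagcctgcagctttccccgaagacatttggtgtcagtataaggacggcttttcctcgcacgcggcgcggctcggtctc
Hcn4 held 2 GC boxes, Hcn2 held 3 and Cacna1i held 1 TCF/LEF match. Of the other windows, one of 3 for Cacna1c and one of 2 for Cacna1d held 6 GC boxes, and another of Cacna1c held 1 TCF/LEF match. Of 32817 annotated promoter windows of the same kind, 35.6% held a GC box and 16.9% a TCF/LEF match.

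Between 841974 and 886085 molecules were counted per DJ-1+/+ library and between 967751 and 1098125 per DJ-1-/- library, so that every DJ-1-/- library was deeper. Levels are given as counts per 1000000 (cpm), and 3' counting reads 1 fragment per transcript, so counts do not grow with transcript length. The highest count of any gene in a library was between 1040 and 1359, which is low for libraries of this size, and what this does to levels and fold changes was not tested. Park7 had 105 to 132 counts in DJ-1+/+ and 14 to 29 in DJ-1-/- mice. Xist was absent or nearly so, and the Y-linked Ddx3y present, in 3 libraries: 1 and 4 of the DJ-1+/+ mice and 5 of the DJ-1-/- mice. Of lists of cell type markers, all 15 dopaminergic neuron markers were detected, with a summed level of 666 to 1277 cpm in DJ-1+/+ and 940 to 1342 cpm in DJ-1-/- mice. The lowest sum was in DJ-1+/+ replicate 4. Each of these markers but Lmx1b was higher in DJ-1-/- mice by log2 fold change. For Th, Slc6a3, Pitx3, Foxa1, Ret and Chrna6 the unadjusted p in edgeR's quasi-likelihood test was 0.0226 to 0.0478, and the adjusted p 0.9999. Without DJ-1+/+ replicate 2, the DJ-1+/+ library with the most Slc6a3 (130 cpm), Slc6a3 had an adjusted p under 0.05 in the same test. Pitx3 had 0 or 1 counts in each DJ-1+/+ library and at most 6 in a DJ-1-/- library. Of all genes tested 1.55% were higher at an unadjusted p under 0.05. What this lean does to the channel genes was not tested. The 6 thalamic neuron markers summed to 920 cpm in DJ-1+/+ replicate 4 and 835 cpm in DJ-1-/- replicate 5, against 170 to 414 cpm in the other 7 libraries. The 9 cerebellar neuron markers summed to 935 cpm in DJ-1+/+ replicate 1 and to 180 to 291 cpm elsewhere.

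None of the 8 channel genes differed between genotypes in edgeR's quasi-likelihood test at an adjusted p under 0.05, a call made for 0.00552% of the 18127 genes tested. At an unadjusted p under 0.05 the count was also 0 of 8, in edgeR and in DESeq2, against 2.82% of all genes in edgeR (1.55% higher and 1.27% lower in DJ-1-/- mice). All 8 genes passed the filter of at least 10 counts over the libraries. In cpm the ranges of the genotypes overlapped for each of the 8, while 1.25% of all genes tested had ranges that did not (0.662% with DJ-1-/- higher and 0.585% with it lower). On the log2 scale 5 genes had a positive and 3 a negative fold change of DJ-1-/- over DJ-1+/+, the median being 0.01 (4 and 4 with RLE size factors), and 51.8% of all genes tested had a positive one, their median also being 0.01.

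**Figure D1:**
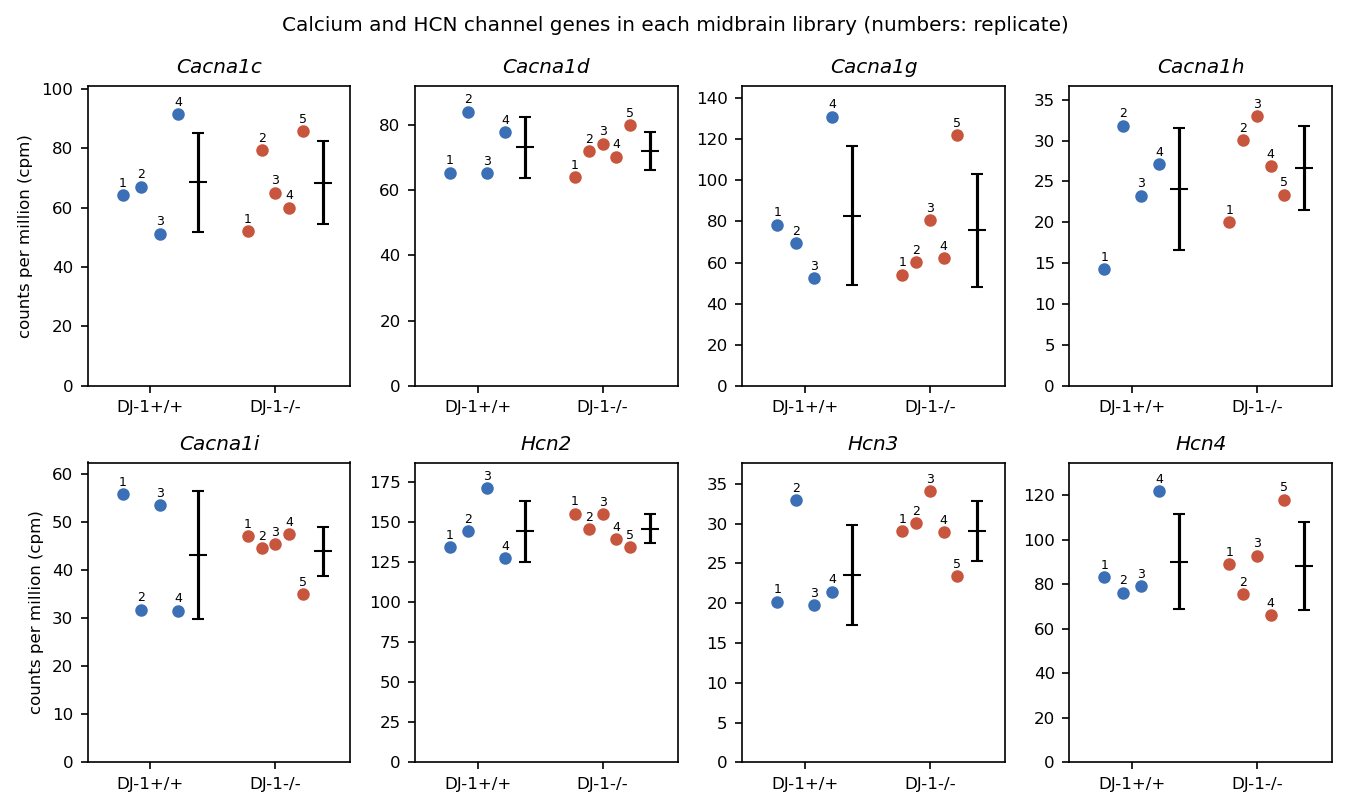
Level of each channel gene in cpm (vertical axes, starting at 0) in each of 4 DJ-1+/+ (blue) and 5 DJ-1-/- (red) libraries, numbered by replicate; black bars are mean ± SD. The genotypes overlap in each panel, and DJ-1+/+ replicate 4 and DJ-1-/- replicate 5 are highest for Cacna1c, Cacna1g and Hcn4.

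Of the L-type pores, Cacna1d (chromosome 14, 30039939 to 30491455, minus strand) was the steadier. It had 65.3, 84.1, 65.2 and 77.9 cpm in DJ-1+/+ replicates 1 to 4 and 64.1, 71.9, 74.3, 70.3 and 79.9 cpm in DJ-1-/- replicates 1 to 5. Every DJ-1-/- value lay below the highest DJ-1+/+ value, and the means were 73.1 ± 9.44 cpm (SD, n = 4) and 72.1 ± 5.78 cpm (SD, n = 5), with an exact permutation p of 0.865. The fold change was 0.831 to 1.17 at its 95% limits. Cacna1c (chromosome 6, 118587240 to 119196418, minus strand) had 64.1, 67.1, 51.2 and 91.4 cpm in DJ-1+/+ and 52.0, 79.2, 65.0, 59.9 and 85.8 cpm in DJ-1-/- mice. Its highest values were in replicate 4 of the former and replicate 5 of the latter, and both groups started near the same low value. The means were 68.4 ± 16.8 (SD, n = 4) and 68.4 ± 13.9 cpm (SD, n = 5), with an exact permutation p of 1 and a 95% interval of 0.781 to 1.28 for the fold. Both genes overlap other annotated genes, 3 for Cacna1c and 7 for Cacna1d, on either strand, and the use of strand in counting is not stated.

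Of the T-type pores, Cacna1g (chromosome 11, 94408391 to 94474198, minus strand), which encodes the pore of thalamic relay neurons, varied most. Its level was 78.4, 69.3, 52.4 and 131 cpm in DJ-1+/+ and 54.1, 60.1, 80.5, 62.0 and 122 cpm in DJ-1-/- mice. One library of each genotype stood far above the rest. The means of 82.7 ± 33.9 cpm (SD, n = 4) and 75.7 ± 27.6 cpm (SD, n = 5) gave an exact permutation p of 0.683, and the log2 fold change was −0.13 (SE 0.26). The coefficient of variation among DJ-1+/+ mice was 40.9%, where counting error alone gives 11.8%.

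Cacna1i (chromosome 15, 80287238 to 80398279, plus strand), a T-type pore of slow kinetics, had 55.8, 31.8, 53.5 and 31.6 cpm in DJ-1+/+ and 47.0, 44.6, 45.4, 47.5 and 35.1 cpm in DJ-1-/- mice. The DJ-1+/+ libraries formed a high and a low pair around the DJ-1-/- values, of which replicate 5 was lowest. The means were 43.2 ± 13.3 cpm (SD, n = 4) and 43.9 ± 5.09 cpm (SD, n = 5), with an exact permutation p of 0.96. Cacna1h (chromosome 17, 25374285 to 25433783, minus strand), the Cav3.2 pore, was the lowest of the 8, with 12 to 28 counts in DJ-1+/+ and 20 to 33 in DJ-1-/- libraries. It had 14.3, 31.8, 23.3 and 27.1 cpm in DJ-1+/+ and 20.02, 30.1, 33.0, 26.9 and 23.4 cpm in DJ-1-/- mice. Its log2 fold change of 0.14 (SE 0.24) had a 95% interval from 0.778 to 1.56 as a fold, the exact permutation p was 0.563, and counting error at these counts was about 20%.

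Of the HCN channels, Hcn2 (chromosome 10, 79716634 to 79736108, plus strand) was the most abundant and the most precisely measured of the 8 genes. It had 134, 144, 171 and 128 cpm in DJ-1+/+ and 155, 146, 155, 139 and 134 cpm in DJ-1-/- mice. The groups overlapped throughout, with means of 144 ± 19.1 cpm (SD, n = 4) and 146 ± 9.15 cpm (SD, n = 5) and an exact permutation p of 0.865. The 95% interval of the fold, 0.889 to 1.15, was the narrowest of the 8. In DJ-1-/- mice its coefficient of variation was 6.27%, below the 8.23% that counting error gives. In DJ-1+/+ mice it was 13.3%, above the 8.94% from counting error.

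Hcn4 (chromosome 9, 58823412 to 58863175, plus strand), the channel with slow kinetics and strong cyclic AMP response, had 83.1, 76.1, 79.1 and 122 cpm in DJ-1+/+ and 89.1, 75.6, 92.8, 66.1 and 118 cpm in DJ-1-/- mice. The same libraries as for Cacna1g stood above the others. The means were 90.1 ± 21.4 cpm (SD, n = 4) and 88.3 ± 19.7 cpm (SD, n = 5), with an exact permutation p of 0.849 and a log2 fold change of −0.03 (SE 0.17). Hcn3 (chromosome 3, 89146074 to 89160196, minus strand) had 20.2, 33.0, 19.8 and 21.4 cpm in DJ-1+/+ and 29.0, 30.1, 34.0, 28.9 and 23.4 cpm in DJ-1-/- mice. Apart from DJ-1+/+ replicate 2, the DJ-1+/+ libraries lay below each DJ-1-/- library. The means of 23.6 ± 6.28 cpm (SD, n = 4) and 29.1 ± 3.81 cpm (SD, n = 5) gave the largest log2 fold change of the 8, 0.30 (SE 0.21), with an exact permutation p of 0.159 and a 95% interval of 0.905 to 1.67 for the fold. Without DJ-1+/+ replicate 2 it was 0.50, with an exact permutation p of 0.0179, the smallest that 3 libraries against 5 allow, and an adjusted p of 0.997 in edgeR's quasi-likelihood test. Leaving out the only DJ-1+/+ library in the DJ-1-/- range made the ranges separate, which nearly fixes this permutation p. The unadjusted p of Hcn3 from edgeR without that library was 0.0326, the only one under 0.05 among the 176 alternative fits of the 8 genes. Hcn3 overlaps Pklr on the other strand.

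**Figure D2:**
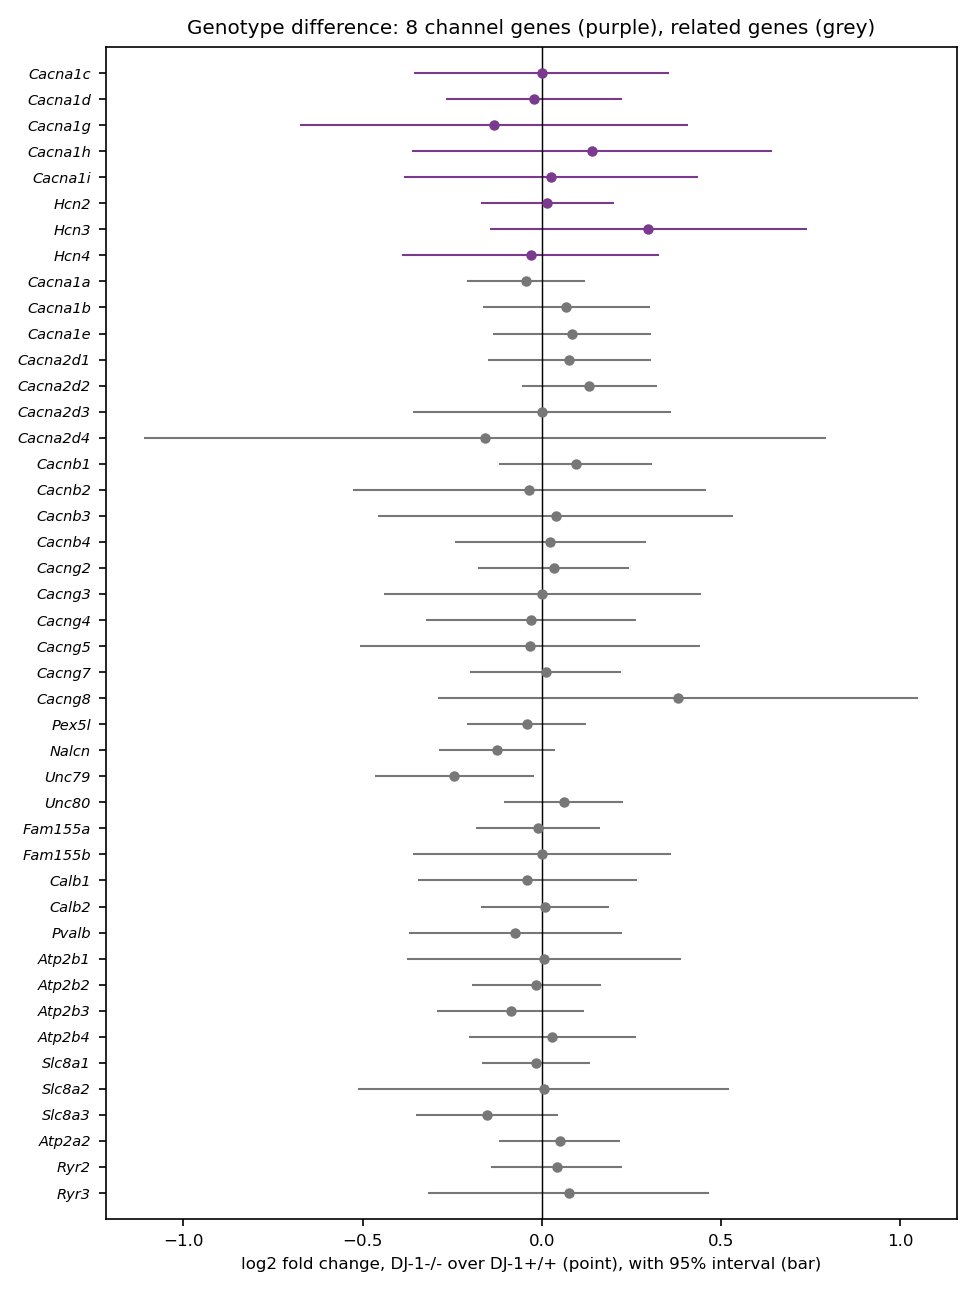
Log2 fold change of DJ-1-/- over DJ-1+/+ (horizontal axis; points) with 95% intervals (bars) from edgeR for the 8 channel genes (purple) and related genes (grey; Kcne2 and Ryr1, with few counts, and genes not reported here are not drawn). Each purple interval crosses 0, Hcn2 has the narrowest and Cacna1g and Cacna1h the widest.

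The other genes of calcium entry and pacemaking were read from the same fit. Of 43 such genes 39 were tested, 21 lay above and 18 below 0 in log2 fold change (15 and 24 with RLE size factors), none had an adjusted p under 0.05, and 1 had an unadjusted p under 0.05 against 2.82% of all genes. That gene was Unc79, which encodes a subunit of the NALCN sodium leak channel complex that depolarizes neurons at rest. It had 79.6, 97.7, 82.6 and 98.2 cpm in DJ-1+/+ and 77.1, 73.8, 67.1, 79.6 and 80.9 cpm in DJ-1-/- mice. The ranges overlapped only in that DJ-1-/- replicate 5 lay above DJ-1+/+ replicate 1, and the log2 fold change was −0.24 (SE 0.10), with an adjusted p of 0.9999 in edgeR's quasi-likelihood test. The unadjusted p of Unc79 from edgeR was 0.0336 and rose above 0.05 without DJ-1+/+ replicate 2 (0.0949) or 4 (0.113) or DJ-1-/- replicate 2 (0.0633) or 3 (0.082). It also lay above 0.05 with DESeq2 (0.0757), with no filter (0.0516) and with Xist as a covariate (0.0621). In libraries with Xist it was 0.064, without DJ-1+/+ replicates 1 and 4 it was 0.08, and without DJ-1+/+ replicate 4 and DJ-1-/- replicate 5 it was 0.0817, so that 10 of 22 alternatives lost the call.

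None of the auxiliary subunits passed the test. Among the other calcium pores, log2 fold changes ran from −0.04 for Cacna1a, the P/Q-type pore, to 0.08 for Cacna1e, the R-type pore. The alpha2delta subunits, which set surface density of the pores, ran from −0.16 for Cacna2d4 to 0.13 for Cacna2d2, and the cytoplasmic beta subunits from −0.03 for Cacnb2 to 0.10 for Cacnb1. The gamma subunits and TARPs ran from −0.03 for Cacng5 to 0.38 for Cacng8. In the NALCN complex Unc80 had a log2 fold change of 0.06. Nalcn, the pore of that complex, was picked out after its values were seen as the only one of the 43 related genes whose genotype ranges did not overlap, where 1.25% of all genes tested had such ranges. It had 113, 109, 113 and 122 cpm in DJ-1+/+ and 107, 101, 103, 104 and 108 cpm in DJ-1-/- mice. The exact permutation p was 0.00794, the smallest possible. Ranges that do not overlap nearly fix this p, so it only restates how Nalcn was picked. The log2 fold change of Nalcn was −0.13 (SE 0.08), with an unadjusted p of 0.191 and an adjusted p of 0.9999 in edgeR's quasi-likelihood test. Of the pumps, exchangers and release channels, Ryr3 had the highest value, 0.07, and Ryr1, with 30 counts in all, the lowest, −1.09 (SE 0.61). Kcne2, a small HCN partner also made by choroid plexus, had 20 counts in DJ-1+/+ replicate 4 and 5 or fewer elsewhere, for a log2 fold change of −2.24 (SE 1.19), and the choroid plexus markers summed to 837 cpm in that library against 157 to 391 cpm in the others.

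A pattern by library, picked out after the values were seen, ran across both genotypes. Cacna1g, Hcn4 and Cacna1c had their highest levels in DJ-1+/+ replicate 4 and DJ-1-/- replicate 5, the libraries with the highest thalamic markers. Being highest in both was found for 3 of the 8 genes and for 5.52% of all genes tested. For Cacna1g the levels were 131 and 122 cpm against 52.4 to 80.5 cpm in the other 7 libraries, for Hcn4 122 and 118 cpm against 66.1 to 92.8 cpm, and for Cacna1c 91.4 and 85.8 cpm against 51.2 to 79.2 cpm. All 6 thalamic markers were highest there too: Tcf7l2, a transcription factor of thalamic neurons, had 323 and 322 cpm against 81.1 to 166 cpm. Among related genes, Cacnb2, Cacnb3, Cacnb4, Cacna2d4, Cacng5, Atp2b1 and Atp2a2 did the same. Cacna1i was low in the same libraries, at 31.6 and 35.1 cpm, though DJ-1+/+ replicate 2 was as low. The 15 dopaminergic markers summed to 666 and 940 cpm there, the lowest sum of each genotype. Slc18a2, En1, Slc10a4, Gch1 and Lmx1b were lowest in these libraries, and 0 of the 15 were highest in both. Slc18a2 had 35.0 and 65.3 cpm against 95.5 to 135 cpm elsewhere, while Nr4a2 had 106 and 125 cpm against 46.5 to 136 cpm. Ddx3y was expressed in DJ-1+/+ replicate 4 and DJ-1-/- replicate 5, and also in DJ-1+/+ replicate 1. This last library had low thalamic markers and the highest cerebellar markers. Its 78.4 cpm of Cacna1g lay near the top of the range of the other 7 libraries. Fits with the thalamic marker level or with Xist as a term are given below. The part of tissue composition or sex in these levels was itself not tested.

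**Figure D3:**
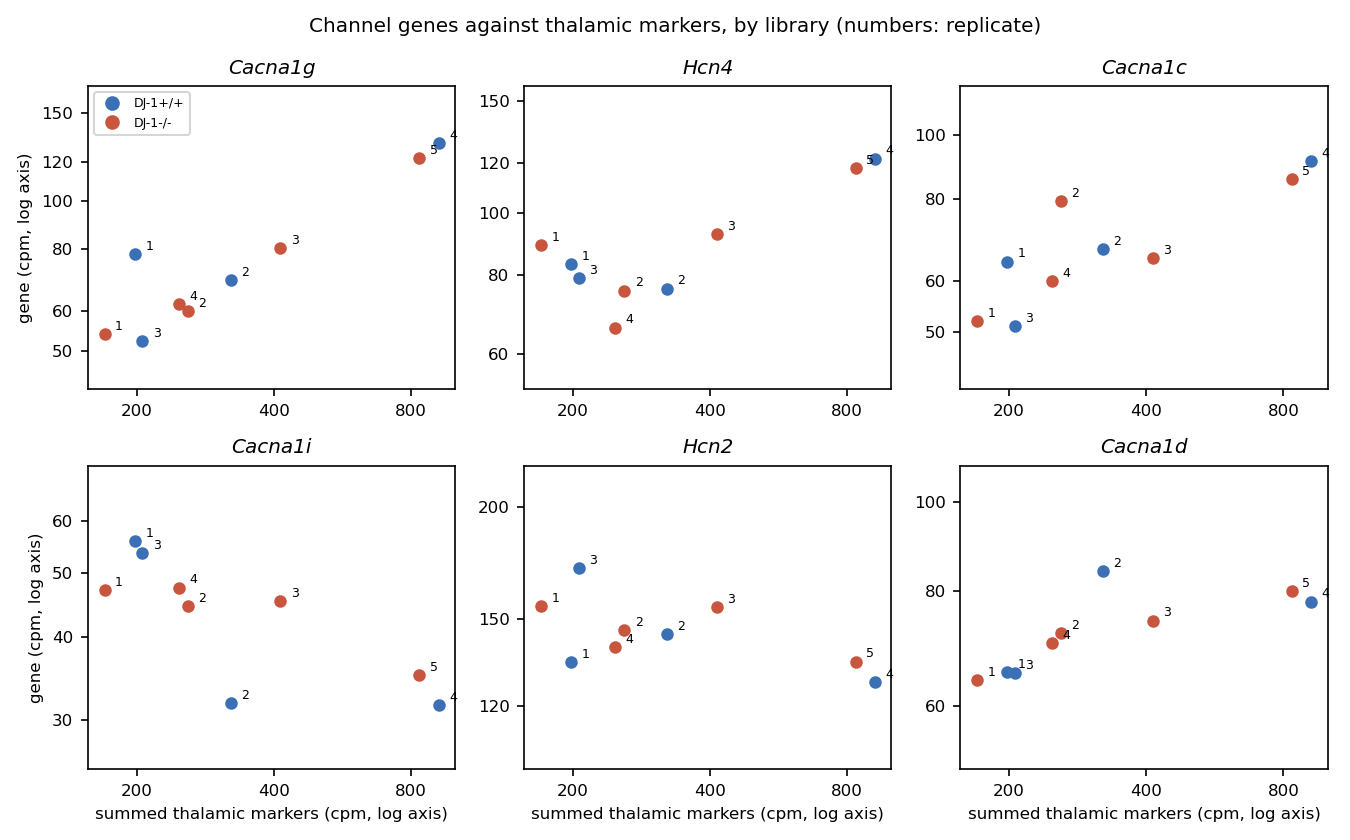
Level of 6 channel genes (vertical axes, cpm, log scale) against the summed level of 6 thalamic markers (horizontal axes, cpm, log scale) in each library, numbered by replicate and coloured by genotype. DJ-1+/+ replicate 4 and DJ-1-/- replicate 5 lie at the right, high for Cacna1g, Hcn4 and Cacna1c and low for Cacna1i.

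With the log2 summed level of thalamic markers as a term, the slope over 9 libraries was 0.51 (SE 0.07) for Cacna1g, 0.28 (SE 0.07) for Hcn4 and 0.28 (SE 0.07) for Cacna1c. It was −0.26 (SE 0.10) for Cacna1i and −0.08 (SE 0.05) for Hcn2. Cacna1g, Hcn4 and Cacna1c were picked for peaking in the 2 libraries with the most thalamic markers, and Cacna1i for being low there. Their slopes over 9 libraries, and the smaller SEs given below, therefore partly restate that choice. Within the 7 libraries other than those 2 the slope of Hcn4 was 0.01 (SE 0.16), while that of Cacna1g was 0.34 (SE 0.19) and that of Cacna1c 0.23 (SE 0.20). Of the related genes highest in both, Cacnb4, Cacng5 and Atp2a2 had slopes of −0.26 (SE 0.11), −0.15 (SE 0.20) and −0.06 (SE 0.10) in those 7. For Cacnb2, Cacnb3, Cacna2d4 and Atp2b1 they were 0.57 (SE 0.22), 0.65 (SE 0.17), 0.27 (SE 0.52) and 0.14 (SE 0.09). In the fit of all 9 libraries with that term, the genotype difference of Cacna1g was −0.10 (SE 0.12), where the SE without the term was 0.26. For Hcn4 the SE went from 0.17 to 0.11 and for Cacna1c from 0.17 to 0.13. Leaving out both libraries gave Cacna1g means of 66.7 ± 13.2 cpm for DJ-1+/+ (SD, n = 3) and 64.2 ± 11.4 cpm for DJ-1-/- (SD, n = 4), and Hcn4 means of 79.5 ± 3.51 and 80.9 ± 12.3 cpm.

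In the order of levels over all 9 libraries, Hcn2 (145 cpm) came first, followed by Hcn4 (89.1), Cacna1g (78.8), Cacna1d (72.5), Cacna1c (68.4), Cacna1i (43.6), Hcn3 (26.6) and Cacna1h (25.5 cpm). Only Hcn2 and Hcn4 were neighbours whose ranges did not overlap. Cacna1d exceeded Cacna1c in 6 of 9 libraries and made up 46.0 to 56.0% of their summed counts in DJ-1+/+ and 47.6 to 55.2% in DJ-1-/- mice. Cacna1g took 40.5 to 69.0% of the T-type counts in DJ-1+/+ and 44.6 to 67.6% in DJ-1-/- mice, the upper ends again in the libraries rich in thalamic markers.

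The genes whose log2 level followed each channel gene most closely over the 9 libraries were sought among 10927 genes, as a description that rests partly on the 2 libraries. For Cacna1g they were Syt9 (Pearson r = 0.98), Tenm3 (0.98) and Rora (0.97), and those given for Hcn4 are Rnf150 (0.97) and Peak1 (0.97). Cacna1c was followed by Mef2c (0.97), Klhl3 (0.95) and Avpi1 (0.95), and Cacna1d by Gabrg3 (0.97), Erich3 (0.94) and Cntln (0.94). Cacna1i was followed by B230311B06Rik (0.99), Tuba8 (0.95) and Hhatl (0.95), and Hcn2 by Rxra (0.94), Tspan17 (0.94) and Snx19 (0.92). Between the channel genes, r was 0.85 for Cacna1g with Hcn4, 0.83 for Cacna1c with Cacna1g and −0.91 for Cacna1d with Cacna1i. Cacna1h and Hcn3 had under 20 counts in some libraries and were left out.

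**Figure D4:**
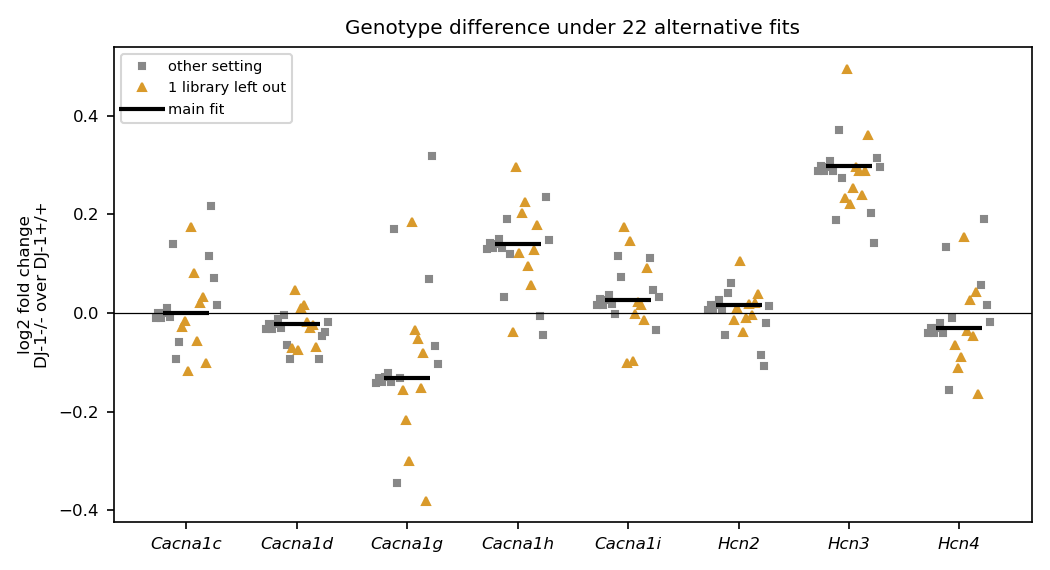
Log2 fold change of DJ-1-/- over DJ-1+/+ (vertical axis) for each channel gene in the main fit (black line), with 1 library left out (triangles) and under the other settings (squares). Hcn3 stays above 0 in the 22 alternatives, the others have values on both sides of 0, and Cacna1g moves most.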

How the data were processed

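Midbrain RNA of 9 mice was made into 3' QuantSeq libraries. The authors deposited whole-number UMI counts per gene and library, without normalization. The submitters' processing notes name fastp 0.20.0, STAR 2.7.3a, Subread featureCounts 2.0.0, UMI-tools 1.0.0 and GRCm38; strand setting and annotation release are not given in the sources used here. Symbols and positions are from GENCODE M21. A gene absent from a library had 0 counts. Genotypes come from the labels.

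Genes of 10 or more counts in all were tested with edgeR 4.0.16 (TMM, quasi-likelihood, genotype only, Benjamini-Hochberg adjustment) in R 4.3.3, with SE as the log2 fold change divided by the square root of F. Single genes were compared as cpm by exact two-sided permutation over 126 splits, whose smallest p is 0.00794. Alternatives were RLE factors, library totals, DESeq2 1.42.0, the likelihood ratio test, other filters, Xist as a covariate, a replicate block, thinned counts and left-out libraries. The 2 alternatives on thalamic markers were added after the data were seen. Scripts were tested on simulated data. The 8 genes and the lists were chosen with earlier results of these data known. Genes named by rule are the 8, Park7, in each list those with an unadjusted p under 0.05 and the extremes, the 3 most alike per gene, markers, Xist and Ddx3y. Ryr1 and Kcne2, at low counts, are extremes too. Outside the rule, Nalcn, Cacnb3, Cacnb4, Atp2b1 and Atp2a2 were named after their values were seen. At 3 counts, taken as the detection limit, only counting error is covered. Some genes that this rule names are not reported here.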

Additional observations from a re-analysis of the deposited data

Results flagged for a closer look

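In 6 of 44 groups of libraries, 1 library stood apart from its genotype by Dixon's test at the 95% level. For normally distributed values of genes picked without regard to them, chance alone flags about 1 in 20, or 2.2. The genes behind the 44 groups include the fold change extremes of each list, and some have few counts, so 2.2 is only a rough guide here. Hcn4 had 122 cpm and Cacng5 106 cpm in DJ-1+/+ replicate 4, one of the libraries with high thalamic markers. Cacna1i was low in DJ-1-/- replicate 5, at 35.1 cpm, the other such library. Hcn3 was high in DJ-1+/+ replicate 2, at 33.0 cpm. Kcne2, named as the low extreme of its list, had 22.6 cpm in DJ-1+/+ replicate 4, which had the highest choroid plexus markers. It had 4.55 cpm in DJ-1-/- replicate 2, which is 5 counts, where the other DJ-1-/- libraries had 0 or 1. The cause of these values was not tested.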

How the results depend on the processing

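Of 176 results for the channel genes under 22 alternatives, 134 kept their sign and 42 changed it; no adjusted p fell below 0.86, and Hcn3 stayed positive. These sign changes lie within the intervals given. Over all genes the 1 call (Park7) became 2 with the likelihood ratio test, 36 with no filter, 3 in libraries with Xist and 2 without DJ-1+/+ replicate 4 and DJ-1-/- replicate 5; the cause was not tested. Genes with an unadjusted p under 0.05, 511, became 235 with DESeq2, 802 with no filter and 338 with filterByExpr. With each library left out in turn, calls ran from 1 to 2 and unadjusted ones from 338 to 732.

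The log2 fold change of Cacna1c was −0.0102 with RLE factors, −0.0109 with DESeq2, −0.000629 with the likelihood ratio test, −0.00854 with filterByExpr and −0.06 with thinned counts. With Xist as a covariate it was 0.17 for Cacna1g, −0.00222 for Cacna1i, −0.0453 for Hcn2 and 0.13 for Hcn4. In libraries with Xist it was 0.0691 for Cacna1g, −0.00692 for Cacna1h, −0.0857 for Hcn2 and 0.0558 for Hcn4, and the cpm difference of DJ-1-/- from DJ-1+/+ was 4.93 for Cacna1c, 3.31 for Cacna1g, −0.058 for Cacna1h, −8.90 for Hcn2 and 3.28 for Hcn4. Without DJ-1+/+ replicates 1 and 4 the log2 fold change was 0.32 for Cacna1g, −0.0446 for Cacna1h, −0.11 for Hcn2 and 0.19 for Hcn4. Without DJ-1+/+ replicate 4 and DJ-1-/- replicate 5 it was −0.0352 for Cacna1i, −0.0205 for Hcn2 and 0.0158 for Hcn4. Thinned counts gave Hcn4 a cpm difference of 0.119.

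With single libraries left out, the log2 fold change ran from −0.12 to 0.17 for Cacna1c, −0.0747 to 0.0458 for Cacna1d, −0.38 to 0.18 for Cacna1g, −0.0389 to 0.29 for Cacna1h, −0.10 to 0.17 for Cacna1i, −0.0390 to 0.11 for Hcn2 and −0.17 to 0.15 for Hcn4; the extremes of Cacna1g were without DJ-1-/- replicate 5 and DJ-1+/+ replicate 4. The cpm differences ran from −5.81 to 7.60 for Cacna1c, −3.67 to 2.64 for Cacna1d, −18.6 to 9.00 for Cacna1g, −0.725 to 5.13 for Cacna1h, −3.12 to 4.95 for Cacna1i, −3.94 to 10.6 for Hcn2, 4.22 to 8.62 for Hcn3 and −9.16 to 8.85 for Hcn4.

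Same-numbered libraries of the genotypes did not deviate together (correlations of 0.30, 0.05, −0.12 and −0.19), so the numbers were not taken as pairs. With the replicate block, 8 genes were called over all genes and Cacna1c had a log2 fold change of −0.0939. Depth limits Cacna1h and Hcn3 most.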
